A study of Homo sapiens with 10 samples.

Results

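The PEA3 group of ETS transcription factors, ETV1, ETV4 and ETV5, was followed through 15 regions of H3K27ac in H1975 cells. This histone mark (acetylated lysine 27 of histone H3) is found at active promoters and enhancers. Every region of the annotated table whose gene symbol was ETV1, ETV4 or ETV5 was taken, which gave 8, 4 and 3 regions out of 67387 annotated and 169637 counted ones, all of the same width. The genes were chosen from earlier results on the same data, in which the regions assigned to ETV4 had moved apart between treated cells and DMSO. Values of ETV4 against DMSO are therefore given as a description, with no test, and the fall of H3K27ac at ETV5 was also known in advance as that of a MAPK pathway gene.

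The ETS domain binds DNA around a GGAA core, and the PEA3 factors are induced by growth factor receptors that signal through RAS and ERK. In lung adenocarcinoma driven by mutant EGFR this pathway is held active by the receptor. CIC is a repressor of the 3 genes that binds the octamers TGAATGAA and TGAATGGA and is relieved by ERK signalling, whereas the ubiquitin ligase COP1 with its partner DET1 degrades the PEA3 proteins.

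H1975 is an established human lung adenocarcinoma line with mutant EGFR, and 3 groups of 3 H3K27ac libraries were compared, with 1 pooled input library of chromatin that was not precipitated. DMSO cells were grown free of drug for 21 days and were then given DMSO for 3 days. Osimertinib DTPs (drug-tolerant persister cells) were exposed to osimertinib, an inhibitor of mutant EGFR, at 500 nM for 24 days. The cells named osimertinib DTP + AZD5153 received osimertinib at 500 nM for 21 days followed by AZD5153, an inhibitor of BET bromodomain proteins, at 150 nM for 3 days, and are called the combination here. The labels do not say whether osimertinib was kept on during those last days. All groups come from 1 cell line, and the labels call the replicates biological triplicates.

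Sequence was at hand for ETV1 only, as RefSeq promoter windows of assembly GRCh38.p14 that run from 250 bases before to 50 bases after a start site. The 2 windows below were chosen because they carried the longer motifs searched. They lie on the reverse strand of chromosome 7 and are written 5′ to 3′. A further window (13990657 to 13990956) overlaps the inner one, holds the same CCGGAA site and is not printed. Capitals mark TGAATGGA and the ETS motif CCGGAA, which has the flank that these factors prefer around their core.
ETV1 outer start, chr7:13991376-13991675: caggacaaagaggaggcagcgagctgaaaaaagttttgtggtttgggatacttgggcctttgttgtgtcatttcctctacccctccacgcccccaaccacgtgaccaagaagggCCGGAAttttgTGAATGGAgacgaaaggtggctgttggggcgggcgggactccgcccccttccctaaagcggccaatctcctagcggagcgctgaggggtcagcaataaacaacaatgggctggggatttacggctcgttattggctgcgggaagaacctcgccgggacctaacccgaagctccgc
ETV1 inner start, chr7:13990653-13990952: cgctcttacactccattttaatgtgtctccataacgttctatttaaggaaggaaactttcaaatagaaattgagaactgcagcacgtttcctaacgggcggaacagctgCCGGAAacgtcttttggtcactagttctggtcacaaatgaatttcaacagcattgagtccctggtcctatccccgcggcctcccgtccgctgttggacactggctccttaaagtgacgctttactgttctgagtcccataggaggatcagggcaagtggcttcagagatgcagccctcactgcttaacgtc

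In the outer window TGAATGGA began at −125 and CCGGAA at −136 from the start site, and in the inner window CCGGAA began at −141. Searched on both strands, TGAATGGA was in 1.02% of 34943 RefSeq promoter windows, TGAATGAA in 1.65%, and CCGGAA in 17.2%. GGAA alone was in 95.4% of them. The AP-1 motif TGANTCA, found in 7.72% of windows, was in none of the 6 windows of ETV1. The inner window lay wholly inside annotated regions of ETV1, while 97 bases of the outer window did. A counted region without annotation (13991565 to 13992066) covers the upstream end of the outer window. Its TGAATGGA (13991543 to 13991550) fell between counted regions. A match is a run of letters and not a measured binding site.

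The total count over all regions was between 6263443 and 10463351 per H3K27ac library and 1870885 in the input. Replicate 3 of osimertinib DTP + AZD5153 stood apart, with Spearman correlations of 0.354 and 0.430 to its replicates against 0.818 to 0.898 within all other replicate pairs, and 9139 regions without a read. It placed 66.7% of its annotated counts at promoters, and replicate 2 of osimertinib DTP 59.8%, against 40.3% to 45.9% in the other 7 libraries. Results are therefore also given without replicate 3 of the combination where it moved them. Of the epithelial markers EPCAM, KRT8, KRT18, KRT19 and CDH1 all had promoter regions, KRT8 up to a mean of 70.0 CPM (counts relative to the library total, scaled with TMM), and the blood markers PTPRC and CD3E had none. Promoter regions were also present at the fibroblast genes COL1A1 (mean 16.8 CPM) and COL1A2 (7.37 CPM) and the endothelial gene CDH5 (16.97 CPM), against 11.4 CPM at KRT18 and 15.8 CPM at CDH1, while DCN and PECAM1 had none. Of the lung lineage markers NKX2-1 reached 21.6 CPM, NAPSA 16.3 CPM and SFTPB 4.57 CPM. In the input, counts at ETV1 regions were 12 to 32 (median 19), at ETV4 10 to 14, at ETV5 8 to 20, and the median of all counted regions was 10.

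The 4 regions assigned to ETV4, on chromosome 17, split into a group that was low in both treated conditions and a region upstream that was high in them. All 4 carried the class of promoters within 1 kb of a start, so no region of ETV4 was classed as distal. RefSeq places the gene at 43527846 to 43546340 on the reverse strand. The region at 43545934 to 43546435 spans that gene start, and those at 43544712 to 43545213 and 43530464 to 43530965 lie inside the gene. The region at 43578928 to 43579429 begins 32588 bp upstream of the RefSeq start and was assigned through ENST00000586764.1, a transcript that starts at 43579620. Whether the upstream region acts as a start site or as an enhancer was not tested.

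At the ETV4 gene start replicates 1, 2 and 3 of DMSO had raw counts of 60, 67 and 63, those of osimertinib DTP 8, 17 and 3, and those of the combination 3, 7 and 11. At the region 43544712 to 43545213 they were 38, 54 and 55, then 9, 6 and 4, then 2, 1 and 3. Every treated library lay below every DMSO library at both regions. The log2 fold change against DMSO at the gene start was −2.48 ± 0.75 (SE) in osimertinib DTP and −2.61 ± 0.77 in the combination, and at the neighbouring region −2.78 ± 0.68 and −4.11 ± 0.77. RefSeq places DHX8 at 43483975 to 43544799, over the low-coordinate end of this region and all of the one near the end of ETV4. Their reads therefore cannot be given to ETV4 alone. Near the end of ETV4 (43530464 to 43530965) the counts were 45, 68 and 69, then 13, 19 and 9, then 7, 11 and 23, with log2 fold changes of −1.93 ± 0.69 and −1.54 ± 0.69. On the CPM scale the combination overlapped DMSO there, through replicate 3 of the combination at 4.41 CPM against 4.05 CPM in replicate 1 of DMSO.

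At the upstream ETV4 region the counts ran the other way, with 20, 19 and 12 in DMSO, against 59, 152 and 54 in osimertinib DTP and 70, 102 and 87 in the combination. Its mean level was 1.65 ± 0.398 CPM (SD, n = 3) in DMSO, 10.6 ± 8.91 in osimertinib DTP and 11.8 ± 4.86 in the combination, and neither treated group overlapped DMSO. The log2 fold changes against DMSO were 2.68 ± 0.66 and 2.83 ± 0.67. The highest libraries, replicate 2 of osimertinib DTP (20.9 CPM) and replicate 3 of the combination (16.7 CPM), were the libraries with the largest share of counts at promoters, and the part of that share in the level was not tested. Leaving out that replicate of the combination gave log2 fold changes of 2.67 and 2.49. The value in osimertinib DTP was 1.79 without its replicate 2 and ranged from 1.79 to 3.09 with 1 library left out.

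Inside each library, the upstream region held 12.3%, 9.13% and 6.03% of all ETV4 counts in DMSO. It held 66.3%, 78.4% and 77.1% in osimertinib DTP and 85.4%, 84.3% and 70.2% in the combination, in order of replicate. A share inside a library does not depend on its scaling, and replicate 3 of the combination, which stood apart elsewhere, was on the treated side here. Summed over all 4 regions ETV4 hid this exchange, with 4.65 ± 0.871 CPM per region in DMSO, 3.51 ± 2.75 in osimertinib DTP and 3.82 ± 1.97 in the combination, and the groups overlapped.

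**Figure D1:**
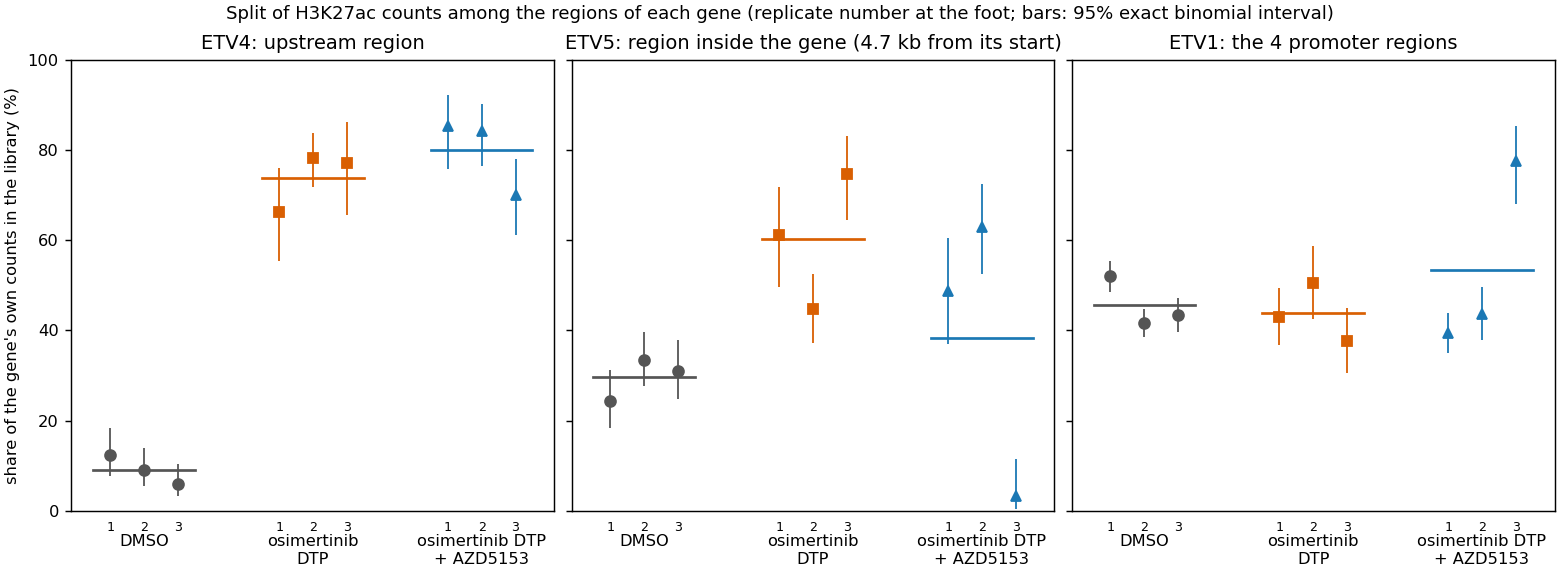
Share of a gene's own H3K27ac counts (y axis, %) that fell in the upstream region of ETV4, the inner region of ETV5 and the 4 promoter regions of ETV1, by group (x axis), 1 point per library with its exact binomial (Clopper-Pearson) 95% interval, which covers counting error only, and a line at the group mean. The ETV4 share was 6.03% to 12.3% in DMSO and 66.3% to 85.4% in treated cells, while the ETV1 share stayed between 37.6% and 52.1% in all libraries but replicate 3 of the combination (77.6%).

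The authors' peak lists, called per library, gave the same split for ETV4, as a description from the same reads. The upstream region was under a peak in 0 of 3 DMSO libraries, in 3 of 3 osimertinib DTP libraries (fold enrichment 4.35, 16.1 and 4.49) and in 3 of 3 of the combination (6.17, 11.8 and 9.46). The gene start and the region beside it were under a peak in 3 of 3 DMSO libraries and in 0 of 6 treated ones. Near the gene end, 3 DMSO libraries, replicate 2 of osimertinib DTP and replicate 3 of the combination had a peak.

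ETV5, on chromosome 3 with RefSeq bounds of 186046314 to 186109089 on the reverse strand, had 3 regions, all classed as promoters within 1 kb, and fell at 1 of them in both comparisons with DMSO. That region, 186109350 to 186109851, begins 261 bp upstream of the RefSeq gene start. Its counts were 61, 84 and 50 in DMSO, against 10, 15 and 11 in osimertinib DTP and 18, 15 and 6 in the combination, and no treated library reached DMSO. The log2 fold change was −2.22 ± 0.59 in osimertinib DTP (edgeR quasi-likelihood test, adjusted p = 0.0234) and −2.002 ± 0.58 in the combination (edgeR, adjusted p = 0.0247). As a fall at ETV5 was known in advance, these p-values are a description.

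Just inside the ETV5 start (186108514 to 186109015) the counts were 76, 81 and 90 in DMSO, against 21, 80 and 12 in osimertinib DTP and 21, 21 and 52 in the combination. In each treated group 1 library was as high as DMSO on the CPM scale, at 11.02 and 9.97 against 6.83 to 8.96 in DMSO, and these were again the libraries with the largest promoter shares. Whether those shares played a part was not tested. In osimertinib DTP the log2 fold change did not pass the test (−0.78 ± 0.76, edgeR adjusted p = 0.581). It was −2.27 without replicate 2 of osimertinib DTP (edgeR adjusted p = 0.117) and −2.03 with limma voom and library quality weights, where it passed (adjusted p = 0.000874), and over all alternatives the adjusted p was between 0.000874 and 0.915. In the combination it did not pass either (−0.76 ± 0.76, edgeR adjusted p = 0.537). When replicate 3 of the combination was left out, that value was −1.84 and passed (edgeR adjusted p = 0.0369), and over all alternatives its adjusted p was between 0.00125 and 0.772.

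The inner ETV5 region (186104138 to 186104639), 851 bp from the start of ENST00000475484.1, was the only annotated region of that gene with a positive value in osimertinib DTP. Its counts were 44, 83 and 63 in DMSO, against 49, 77 and 68 in osimertinib DTP and 37, 61 and 2 in the combination, with a log2 fold change of 0.23 ± 0.69 in osimertinib DTP (edgeR adjusted p = 0.886). In the combination it was −0.72 ± 0.70 against DMSO (edgeR adjusted p = 0.521) and −0.96 ± 0.70 against osimertinib DTP (edgeR adjusted p = 1.00). The groups overlapped, and the sign in osimertinib DTP changed when replicate 1 of DMSO (−0.02) or replicate 2 of osimertinib DTP (−0.07) was left out. As a share of all ETV5 counts the region held 24.3%, 33.5% and 31.0% in DMSO, against 61.3%, 44.8% and 74.7% in osimertinib DTP and 48.7%, 62.9% and 3.33% in the combination. The share was higher in every osimertinib DTP library than in any DMSO library, by 30.6 percentage points (two-sided exact permutation p = 0.1, the smallest that 3 against 3 allows). A fall at the other ETV5 regions raises this share by itself, and that fall was known in advance. The share was also chosen with the values in view, so its permutation p-values are a description. For the combination against DMSO the exact permutation p was 0.7, and against osimertinib DTP 0.5, and without replicate 3 the mean share of the combination was 55.8%. Peaks followed the counts at ETV5. The upstream region was under a peak in 3 of 3 DMSO libraries and in 0 of 6 treated ones, and the inner region in 3, 3 and 2 libraries of DMSO, osimertinib DTP and the combination.

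**Figure D2:**
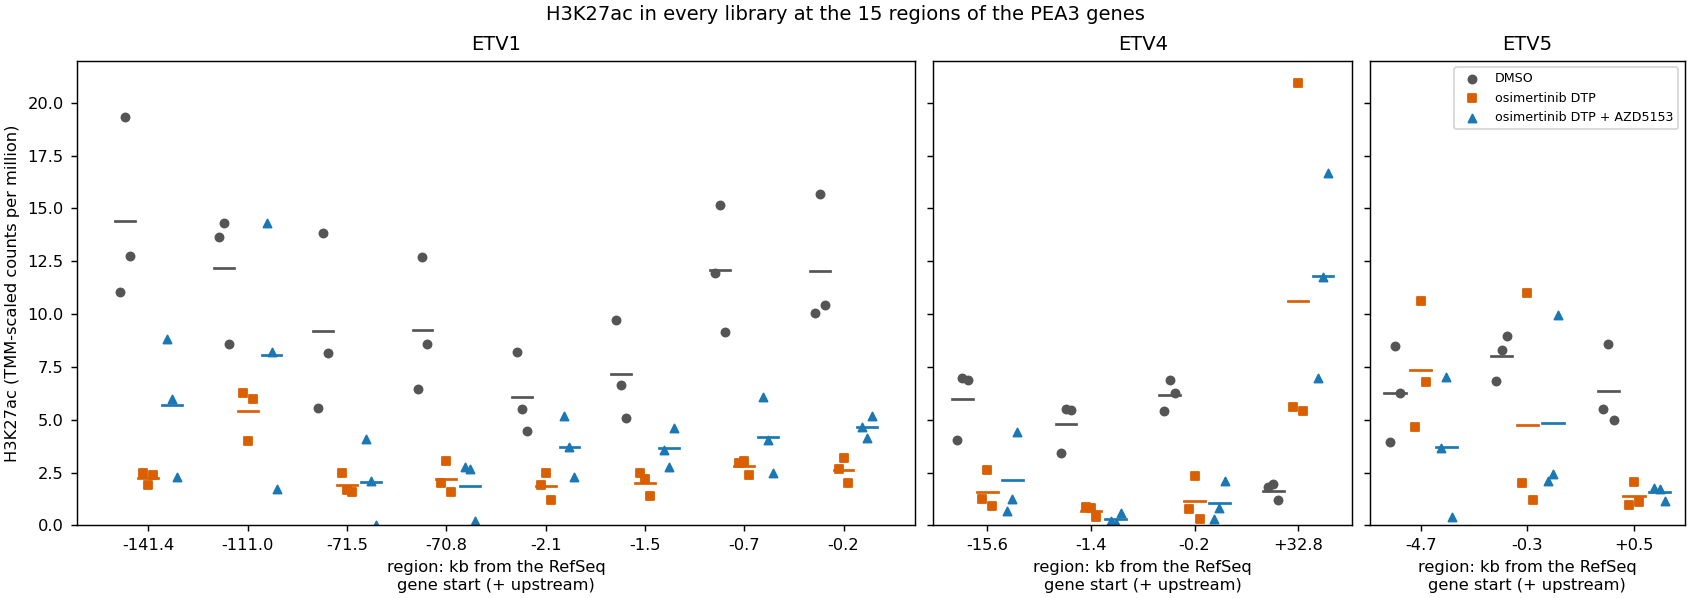
H3K27ac level (y axis, TMM-scaled CPM) of each library at the 8 regions of ETV1, 4 of ETV4 and 3 of ETV5, ordered by distance from the RefSeq gene start (x axis, kb, positive upstream), with a line at each group mean. All osimertinib DTP libraries lie below all DMSO libraries at the 8 ETV1 regions, while at the upstream ETV4 region all treated libraries, at 5.39 to 20.9 CPM, lie above DMSO, at 1.19 to 1.95 CPM.

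ETV1, on chromosome 7 with RefSeq bounds of 13891229 to 13991425 on the reverse strand, had lower values in osimertinib DTP at all its regions, and those that passed the test lay both at the promoter and past the gene end. Of its 8 regions, 4 were at the promoter, 2 were in introns and 2 were distal intergenic, past the end of the gene. All 8 had a negative log2 fold change (median −2.09), against a median of 0.15 over all regions. All 8 were free of overlap with DMSO, where 18.9% of all regions were wholly lower. Of the 8, 4 passed the test, where 5.13% of all regions were called lower. The mean level per region was 10.3 ± 2.33 CPM (SD, n = 3) in DMSO, 2.63 ± 0.288 in osimertinib DTP and 4.24 ± 1.92 in the combination. The levels of DMSO did not overlap those of either treated group, whereas osimertinib DTP (2.32 to 2.89) and the combination (2.35 to 6.18) overlapped each other.

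The largest fall at ETV1 was at the outermost region (13849780 to 13850281), 40948 bp past the gene end. It had 123, 189 and 128 counts in DMSO and 26, 14 and 24 in osimertinib DTP, a mean CPM 6.36-fold lower and a log2 fold change of −2.66 ± 0.60 (edgeR, adjusted p = 0.0114). In the combination it had 89, 52 and 12 counts, between the other groups in replicates 1 and 2 and at the level of osimertinib DTP in replicate 3. The other distal region (13880160 to 13880661, 10568 bp past the gene end) had 152, 140 and 86 counts in DMSO, against 66, 29 and 60 in osimertinib DTP and 144, 71 and 9 in the combination. Its log2 fold change in osimertinib DTP was −1.17 ± 0.64 and did not pass (edgeR adjusted p = 0.265), with a range of 0.0428 to 0.531 over the alternatives.

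The intron pair of ETV1 lay at 13919682 to 13920183 and 13920390 to 13920891. The former had 62, 135 and 82 counts in DMSO, against 26, 12 and 16 in osimertinib DTP and 41, 18 and 0 in the combination, where a count of 0 allows up to 3. The latter had 72, 124 and 86, then 21, 22 and 16, then 28, 23 and 1. The log2 fold changes in osimertinib DTP, −2.26 ± 0.79 and −2.07 ± 0.68, missed the threshold (edgeR adjusted p = 0.0730 and 0.0576) and passed without replicate 3 of the combination (0.00117 and 0.00147).

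At the ETV1 promoter the region over the gene start (13990971 to 13991472) had 112, 153 and 105 counts in DMSO, against 28, 23 and 20 in osimertinib DTP and 47, 36 and 27 in the combination. Its log2 fold change in osimertinib DTP was −2.21 ± 0.54 (edgeR adjusted p = 0.0157). The region beside it (13990466 to 13990967), which holds the inner window printed above, had 133, 148 and 92, then 31, 22 and 24, then 61, 35 and 13 counts, and a log2 fold change of −2.11 ± 0.55 (edgeR adjusted p = 0.0222). Farther inside, 13989707 to 13990208 changed by −1.82 ± 0.56 (edgeR adjusted p = 0.0439), and 13989059 to 13989560 by −1.71 ± 0.58, which missed the threshold (edgeR adjusted p = 0.0636) and passed with a block for the replicate number (0.0450). The 4 promoter regions were all lower in every osimertinib DTP library than in any DMSO library, as were 18.9% of all regions.

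Peaks at ETV1 were lost with the counts. All 8 regions were under a peak in all 3 DMSO libraries, with a fold enrichment of 3.05 to 10.3, and 7 of them were under none in osimertinib DTP. The exception was the distal region at 13880160, with peaks in 3 of 3 osimertinib DTP libraries at 2.89, 2.55 and 2.59. Neighbouring promoter regions share peaks, such as a single one of 2725 bp over all 4 in replicate 1 of DMSO.

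**Figure D3:**
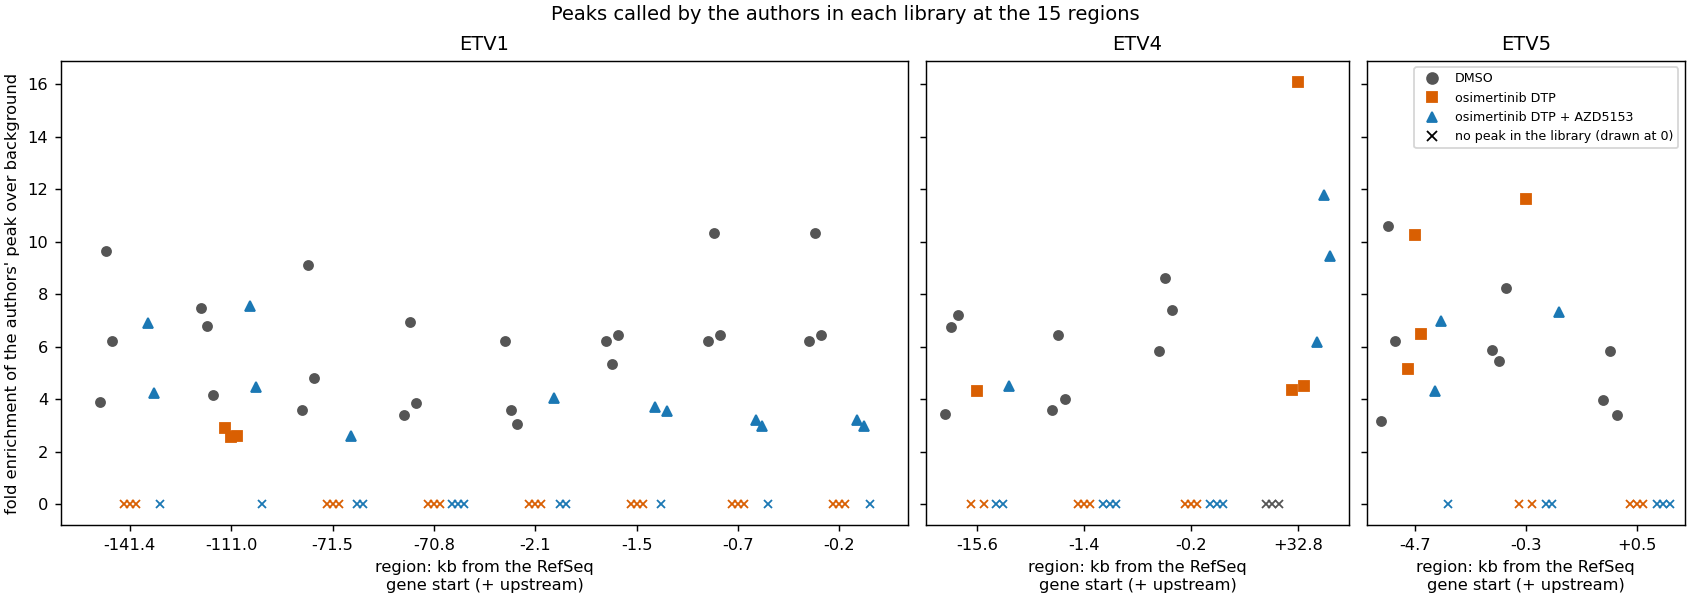
Fold enrichment over background (y axis) of the peaks that the authors called in each library over the 8 regions of ETV1, 4 of ETV4 and 3 of ETV5, ordered by distance from the RefSeq gene start (x axis, kb, positive upstream), with a cross at 0 where a library had no peak. DMSO libraries have a peak at every region but the upstream one of ETV4, where only the treated libraries do, at 4.35 to 16.1.

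Promoter and other regions of ETV1 were both lower in osimertinib DTP than in DMSO, and no shift between them passed a test. With 3 against 3 libraries the exact permutation p cannot fall below 0.1. The promoter held 52.1%, 41.7% and 43.4% of ETV1 counts in DMSO, against 43.0%, 50.6% and 37.6% in osimertinib DTP and 39.4%, 43.6% and 77.6% in the combination. The groups overlapped in every comparison (two-sided exact permutation p = 0.6 for osimertinib DTP, 0.8 for the combination against DMSO and 0.6 between the treated groups). In a fit of promoter and other sums across 6044 genes with both classes, the log2 shift of the promoter relative to other regions was −0.42 ± 0.35 in osimertinib DTP against DMSO (edgeR adjusted p = 0.491, where 13.3% of genes were called). It was −0.02 ± 0.36 for the combination against DMSO (edgeR adjusted p = 0.984, 21.6% of genes called) and 0.40 ± 0.35 for the combination against osimertinib DTP (edgeR adjusted p = 0.869, 0% called). The value for the combination against DMSO changed sign without replicate 1 of DMSO or replicate 1 of the combination, to 0.14 in each case. ETV4 and ETV5 had no region outside promoters and could not enter this fit.

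Counted together, 8 of the 15 regions were called in osimertinib DTP against DMSO, 1 higher and 7 lower, where 5.58% of all 157919 tested regions were called higher and 5.13% lower. All 15 passed the filter on low counts. Of these calls 3 are the ETV4 regions that led to the choice of genes, and nothing is read from them. Groups did not overlap at 13 of 15 regions, against 20.2% of all regions with osimertinib DTP wholly higher and 18.9% wholly lower. The median log2 fold change of the 15 regions was −2.07 and that of all regions 0.15. Of the 11 regions of ETV1 and ETV5 alone, 5 were called, all lower, 9 did not overlap DMSO and the median was −2.07. The fall at ETV5 was itself known in advance. Of the 8 regions of ETV1 alone, 4 were called, all lower, 8 did not overlap DMSO and the median was −2.09. Without replicate 3 of the combination, which is in neither group and enters through the shared fit, 1 of the 15 regions was called higher and 12 lower, where 14.2% and 12.7% of all regions were. With 1 library left out, the counts of called members are among all 15, ETV4 included. The count was 3, 0 and 1 without replicates 1, 2 and 3 of DMSO, where 5.03%, 0.701% and 1.94% of all regions were called. It was 2, 1 and 1 without replicates 1, 2 and 3 of osimertinib DTP, where 5.19%, 3.01% and 2.75% of all regions were called. At an unadjusted p under 0.05 edgeR had 11 members without replicate 2 of DMSO, against 17.7% of all regions, and with all libraries 12 members, against 25.9%.

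The combination was compared with osimertinib DTP, and no member was called (0% of all regions were, in either direction, by edgeR). Since the labels do not say whether osimertinib was kept on with AZD5153, an effect of AZD5153 cannot be told apart from one of ending osimertinib. At an unadjusted p under 0.05 there was 1 member by edgeR and 1 by DESeq2, and limma voom with library quality weights called 1 higher. That region is the outermost one of ETV1, with a log2 fold change of 1.34 ± 0.59 (edgeR adjusted p = 1.00, range over the alternatives 0.0363 to 1.00). At ETV1, 7 of 8 regions were positive (median 0.72), and at the gene start and at 13989707 all combination libraries were above all osimertinib DTP libraries. Such a separation was seen in 2.84% of all regions. With replicate 3 of the combination left out, all 8 ETV1 regions were positive (median 0.81, and −0.17 over all regions). No member was called, where 0.0637% of all regions were called higher and 0.0593% lower. At an unadjusted p under 0.05 (edgeR) there were 4 of the 15 members, against 20.1% of all regions. They include the ETV4 region at 43544712 to 43545213, which was lower (−2.02). At ETV4 and ETV5 the log2 differences between the treated groups were between −1.33 and 0.38, and none passed (edgeR adjusted p = 1.00).

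Against DMSO the combination had 1 region called higher and 4 lower among the 15, where 9.05% and 9.01% of all regions were called. Of these, 3 belong to ETV4, and nothing is read from them, 1 is the upstream region of ETV5 and 1 is the ETV1 intron region at 13920390 (−2.24 ± 0.68, edgeR adjusted p = 0.0311). Of the 11 regions of ETV1 and ETV5, 7 did not overlap DMSO, and the median was −1.31 against 0.23 over all regions. All 8 ETV1 regions were negative (median −1.34), and 6 did not overlap DMSO, where 19.0% of all regions were wholly lower. Without replicate 3 of the combination 1 was called higher and 9 lower, where 18.4% and 17.3% of all regions were. The count was 2, 1 and 1 without replicates 1, 2 and 3 of DMSO, where 10.6%, 5.18% and 6.14% of all regions were called. It was 3 without replicate 1 of the combination, where 10.2% were. All of these counts include the ETV4 region at 43544712 to 43545213, which was called with any 1 library left out. Where the count was 1, that region was the only call, and nothing is read from it. Both comparisons with DMSO share the DMSO libraries. With a block for the replicate number 6 members were called, the added one being the ETV1 promoter region at 13990466 (adjusted p = 0.0600 without and 0.0449 with the block, by edgeR).

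**Figure D4:**
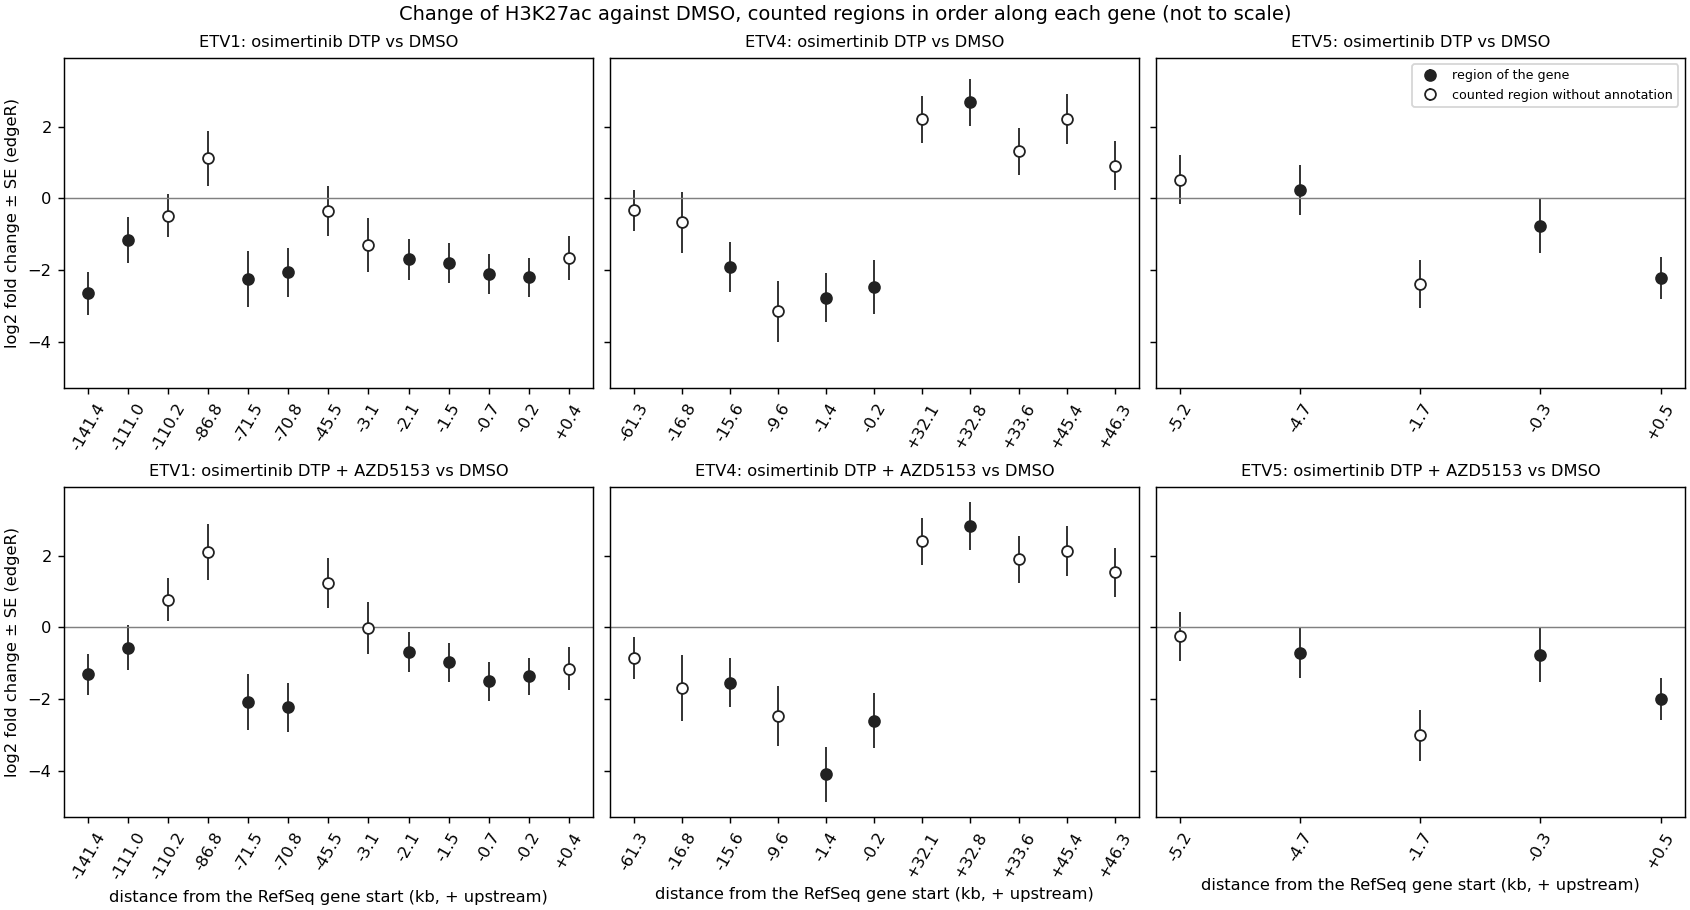
Log2 fold change ± SE against DMSO (y axis) of the counted regions in order along each gene (x axis, distance from the RefSeq gene start in kb, not to scale), for osimertinib DTP (upper row) and the combination (lower row), with filled points for the regions of each gene and open points for counted regions without annotation. At ETV4 the change is positive at all 5 regions upstream of the gene and negative at those inside it, whereas at ETV1 all filled points are below 0.

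A further 14 counted regions without annotation lay within 50 kb of the RefSeq bounds of the 3 genes and were taken by position, after the data had been seen. Around the upstream ETV4 region 4 of them, from 43578157 to 43592844, all had a positive log2 fold change in osimertinib DTP, of 0.91 to 2.21, and in the combination, of 1.53 to 2.40. The nearest one (43578157 to 43578658) had 8, 5 and 6 counts in DMSO, against 24, 24 and 30 in osimertinib DTP and 16, 31 and 25 in the combination. Inside ETV4, the region 43536530 to 43537031, which also lies within the DHX8 bounds, went the other way with −3.16 ± 0.84 in osimertinib DTP. These are given without a test, as for the other ETV4 values. At 43579725 to 43580226 osimertinib DTP overlapped DMSO, with 27, 23 and 9 counts against 9, 8 and 10 in DMSO. At 43592343 to 43592844 osimertinib DTP had 13, 19 and 15 counts against 12, 9 and 8 in DMSO. Higher counts upstream of ETV4 were thus present in neighbouring windows too, on low counts and not in every library.

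Inside ETV5, the region 186107166 to 186107667 changed by −2.39 ± 0.66 in osimertinib DTP (edgeR adjusted p = 0.0286) and −3.02 ± 0.70 in the combination (edgeR adjusted p = 0.00806), and the one beside the inner ETV5 region (186103596 to 186104097) by 0.52 ± 0.68 and −0.25 ± 0.68 (edgeR adjusted p = 0.7001 and 0.845). All these unannotated regions were taken after the data had been seen, and a fall at ETV5 was known in advance. The p-values in this paragraph are therefore a description. Of 5 unannotated regions around ETV1, none was called with all libraries. The region 13991565 to 13992066, just upstream of the gene start, had 79, 91 and 44 counts in DMSO, against 25, 12 and 25 in osimertinib DTP and 47, 30 and 5 in the combination. Its log2 fold change in osimertinib DTP, whose libraries were all below DMSO, was −1.66 ± 0.61 (edgeR adjusted p = 0.0889, and 0.00782 without replicate 3 of the combination), and in the combination −1.16 ± 0.60 (edgeR adjusted p = 0.195). At 13880990 and 13988025 the values in osimertinib DTP were −0.49 ± 0.61 and −1.32 ± 0.76 (edgeR adjusted p = 0.685 and 0.294). At 13904345 to 13904846, inside the gene, the counts were 9, 4 and 11 in DMSO, against 9, 11 and 27 in osimertinib DTP and 52, 36 and 3 in the combination. At 13945685 to 13946186, also inside it, they were 45, 35 and 20, then 37, 15 and 19, then 131, 74 and 5. At both, replicates 1 and 2 of the combination were above all other libraries and replicate 3 was not, and peaks were called in replicates 1 and 2 alone. When replicate 3 of the combination was left out, their log2 fold changes against DMSO were 2.56 and 1.74 (edgeR adjusted p = 0.00224 and 0.00722), and with it 2.10 and 1.24 (0.0670 and 0.237).

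Genes around the PEA3 factors in the pathway were taken from lists. Like the members, these lists were chosen with earlier results of these data known, so their counts are a description. Of 83 regions of 8 other MAPK output genes, such as the feedback inhibitors SPRY4 and DUSP6, 26 fell and 0 rose in osimertinib DTP against DMSO (edgeR; at an unadjusted p under 0.05, 39 and 2), with a median log2 fold change of −1.21, where 5.13% of all regions were called lower and 5.58% higher and the median of all was 0.15. The extremes among the called ones were both at PHLDA1, at −2.03 ± 0.61 and −3.61 ± 0.72. In the combination 17 of the 83 fell and 2 rose against DMSO (median −0.40, where 9.01% and 9.05% of all regions were called and their median was 0.23), from −4.19 ± 0.78 at the Eph receptor gene EPHA4 to 3.40 ± 0.76 at EPHA2, another Eph receptor. Against osimertinib DTP none was called by edgeR (8 higher and 1 lower at an unadjusted p under 0.05), and the median was 0.69, against 0.06 over all regions. A fit that left out replicate 3 of the combination had 41 falls in osimertinib DTP, with 2 rises, where 12.7% and 14.2% of all regions were called, and 3 regions of PHLDA1 called higher in the combination than in osimertinib DTP, where 0.0637% of all were.

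Of 38 regions of the PEA3 regulators CIC, ATXN1, ATXN1L, COP1, DET1 and MED25, 1 passed in osimertinib DTP against DMSO, higher and at ATXN1, a CIC partner (2.26 ± 0.69, edgeR adjusted p = 0.0444). At an unadjusted p under 0.05, 2 were higher and 1 lower. The median was 0.34, against 0.15 over all regions. In the combination 1 passed against DMSO, lower and at a promoter of CIC (−1.77 ± 0.59, edgeR adjusted p = 0.0436) with 50, 37 and 44 counts in DMSO and 15, 6 and 8 in the combination. The unadjusted counts there were 2 higher and 4 lower, and the adjusted ones 6 and 3 without replicate 3 of the combination, when osimertinib DTP had 3 and 3. In each of these fits the share of the 38 regions called, in either direction, was below that of all regions (5.58% higher and 5.13% lower in osimertinib DTP and 9.05% and 9.01% in the combination with all libraries), and nothing about the regulators is read from it. Of 27 regions of genes known as PEA3 targets, 3 rose and 0 fell in osimertinib DTP against DMSO (edgeR; at an unadjusted p under 0.05, 5 and 0), with a median of 0.60 against 0.15 over all regions, of which 5.58% were called higher. All 3 were distal regions of PTGS2, the inducible cyclooxygenase, from 3.51 ± 0.69 to 4.46 ± 0.80. In the combination the counts were 3 and 1 (median 0.69, against 0.23 over all regions), where 9.05% and 9.01% of all regions were called, with PTGS2 at up to 4.86 ± 0.80 and a distal region of MMP9, a matrix metalloproteinase, at −3.10 ± 0.62. Leaving out replicate 3 of the combination gave 6 rises and 0 falls in osimertinib DTP and 4 and 3 in the combination, where 14.2% and 12.7%, then 18.4% and 17.3% of all regions were called. MMP1 had no region.

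The promoter regions most like those of the PEA3 genes across the 9 libraries, among 24292 to 24293 regions of other genes, are given as a description. The points share their libraries and depths. For the ETV1 start region they were those of PADI4 (Pearson r = 0.989), LINC01819 (0.973) and UBE2E3 (0.973). For the upstream ETV4 region they were those of BTN2A2 (0.990), PDE5A (0.988) and SYTL2 (0.988), and for the ETV5 region just inside the start those of HROB (0.993), CCNE2 (0.992) and MAFF (0.986).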

How the data were processed

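H3K27ac ChIP-seq reads of 75 nt, single-end, came from 9 libraries of H1975 cells and 1 pooled input. The submitters' processing notes name BWA 0.7.17, MACS2 2.2.6, featureCounts 2.0.0, ChIPseeker 1.29.1 and build hg38, without their settings. The authors deposited raw read counts, with no normalization, for all regions, and a table that adds gene symbols and classes to 67387 of them, with equal counts. The deposited peak lists, called by the authors per library, give a fold ratio over background and −log10 p and q values, used here only to describe peaks that overlap a region by at least 1 bp.

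Members and lists were chosen with earlier results of these data known, and the named genes were all regions of ETV1, ETV4 and ETV5, the called extremes of each list and the 3 most similar promoter regions. Counts were fitted over all regions with edgeR 4.0.16 (limma 3.58.1, R 4.3.3): filterByExpr (minimum count 10), TMM, and the quasi-likelihood test in 1 fit of 9 libraries, with Benjamini-Hochberg adjustment over 157919 regions at 0.05. The fit was also run on simulated counts, which left out regions with few reads and gave every region the same spread. No simulated library stood apart as replicate 3 of the combination did, so the simulation does not cover these features of the data. Log2 fold changes depend on the prior count for regions with few reads. CPM are counts relative to TMM-scaled totals. Promoter and other counts, summed per gene, were tested for an interaction with group, with a term per library. Shares were compared with exact permutation tests (scipy 1.17.1). Alternatives included DESeq2 1.42.0, a loess offset, no TMM, no filter and leaving out each library. The shares and the unannotated neighbours were chosen later, with the values in view. Same-numbered libraries of osimertinib DTP and DMSO deviated together (Pearson r = 0.334, 0.355 and 0.324), which pairs them under a threshold of 0.1 in every pair, though the labels do not say what a number marks. The main fit over regions and the permutation tests leave this pairing out, and a block for the replicate number was an alternative. The p-values measure the spread between these libraries.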

Additional observations from a re-analysis of the deposited data

How the results depend on the processing

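Over 16 or 17 alternatives, 14 of the 15 regions kept the sign of their log2 fold change in each comparison with DMSO, and 7 of 15 did between the treated groups. Calls depended on single libraries and on the estimate of the spread. For osimertinib DTP against DMSO, 8 members were called, 13 with limma voom and quality weights, 0 at an adjusted p under 0.01 (12 at an unadjusted p under 0.05), and 0 to 13 with 1 library left out. For the combination against DMSO, 5 were called, 8 with DESeq2, 3 with only the libraries of both groups, 10 with voom, 2 at 0.01, and 1 to 10 with 1 library left out. The 2 at 0.01 were ETV4 regions. The counts in both comparisons with DMSO include ETV4, which led to the choice of genes, and nothing is read from its part. For the combination against osimertinib DTP, 0 were called by edgeR (1 at an unadjusted p under 0.05), 0 by DESeq2, 1 by voom, and 0 with any library left out. The median of all regions was 0.23, −0.02 and 0.30 for the combination against DMSO, and 0.06, −0.10 and 0.22 against osimertinib DTP, under TMM, unscaled totals and loess respectively. The cause of these differences was not tested. With the replicate block the counts were 8, 6 and 0, and the block ended the call of the ETV4 gene start in osimertinib DTP. The numbers did not pair the other comparisons (same-number correlations of 0.243, 0.0262 and −0.240 between the treated groups, and −0.0184, 0.553 and 0.362 for the combination and DMSO).

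The shift of the ETV1 promoter in the combination against DMSO, −0.02, was 0.43 with 1 library size for both sums and ranged from −0.18 to 0.14 with 1 library left out. Between the treated groups the sign changed at the ETV4 gene start with a loess offset (0.0185; −0.98 to 0.87 with 1 library left out), at the ETV5 region just inside the start without a filter (−0.0825; −1.04 to 1.53), at the ETV1 intron region at 13919682 with the block (−0.0901; −0.75 to 0.68), and with voom at the ETV4 region near the gene end (−0.41; −0.66 to 0.89) and the ETV1 intron region at 13920390 (0.41; −0.53 to 0.31). With 1 library left out it also changed at the upstream ETV4 region (−0.23 to 1.07), the upstream ETV5 region (−0.0533 to 0.58) and the ETV1 distal region at 13880160 (−0.10 to 1.05), which in the combination against DMSO was 0.0808 with voom. The inner ETV5 region in osimertinib DTP ranged from −0.0667 to 0.57.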
